A study of Mus musculus with 4 samples.

Results

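The urea transporters and aquaporins are small families of membrane channels, and 9 of their genes were followed here in bladder epithelial colonies: the 2 urea transporters Slc14a1 and Slc14a2 and the 7 aquaporins Aqp1, Aqp3, Aqp4, Aqp5, Aqp7, Aqp9 and Aqp11. Each was found through the single gene symbol that the platform annotation gives its transcript cluster, the array's gene-level group of probes. All 9 had exactly 1 such cluster, out of 14860 genes with a single symbol and 23332 clusters in all. Each sample was hybridised to 1 Affymetrix Mouse Exon 1.0 ST array. The 2 p63 knockout and 2 wild-type samples were epithelial stem cell cultures from bladders of newborn C57BL/6J mice, grown on 3T3 cells, a mouse fibroblast line that serves as a feeder layer. Both groups were colonies picked off that layer, and the labels do not say how many animals or colonies an array holds, which part of the gene the knockout removes, or whether the arrays of a group came from separate animals. The p-values below therefore rest on the spread between these arrays, which may be technical. The test, limma, pools each cluster's spread with that of all clusters (2 residual and 2.2 prior degrees of freedom).

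Urea transporters let urea cross cell membranes down its gradient. Aquaporins let water through, and a subgroup, the aquaglyceroporins, also passes glycerol. The urothelium, the lining of the bladder, faces concentrated urine, and in rodents it is known to make the urea transporter UT-B and the aquaglyceroporin Aqp3. p63, encoded by Trp63, is a relative of p53 that regulates transcription in basal cells of layered epithelia, the urothelium among them. The comparison asks how transcripts differ in cultured bladder epithelium that lacks it.

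Trp63 itself had 4.60 and 4.74 log2 units on the knockout arrays, against 8.98 and 8.99 on the wild-type arrays, a 19.9-fold fall in measured signal (limma adjusted p = 0.015). All values are the deposited log2 intensities, so 1 unit is a doubling. The arrays carry no background flags, and 719 olfactory receptor clusters, of genes that bladder epithelium is not known to use, served as a guide to background. Their 95th percentile was 5.38 and 5.27 on the knockout arrays and 4.84 and 4.81 on the wild-type arrays. Both knockout values of Trp63 were below it, so its fold, like any fold against such a level, is open to understatement. Olfactory receptor clusters were also higher in the knockout by a median of 0.47 log2 units, and the median of all clusters was higher by 0.12. Quantile normalization brought these medians to 0.070 and 0.0029. Differences after quantile normalization are therefore given for the dimmer members as well.

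One member, Slc14a1, fell in the knockout, and Aqp3 had the next lowest difference. Against 0.527% of all clusters called in either direction and 0.386% called lower at a limma adjusted p under 0.05, the members had 1 call of 9, and 0 of them rose, beside 0.141% of all clusters. At an unadjusted p under 0.05 there were 3 members, beside 22.3% of all clusters: Slc14a1 and Aqp3 were lower, beside 7.7% of clusters, and Aqp4 was higher, beside 14.6%. The median log2 difference of the 9 was 0.34, the value of Aqp7, against 0.12 for all clusters. After quantile normalization Aqp7 was at 0.067 and the median of all clusters at 0.0029. For every member the knockout arrays lay wholly above or wholly below the wild-type arrays, with 3 below and 6 above (Slc14a2, among the 6, was at about 0 after quantile normalization and after cyclic loess), but the same held for 57.1% of all clusters, 20.9% below and 36.2% above. That pattern is therefore common in this table.

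**Figure D1:**
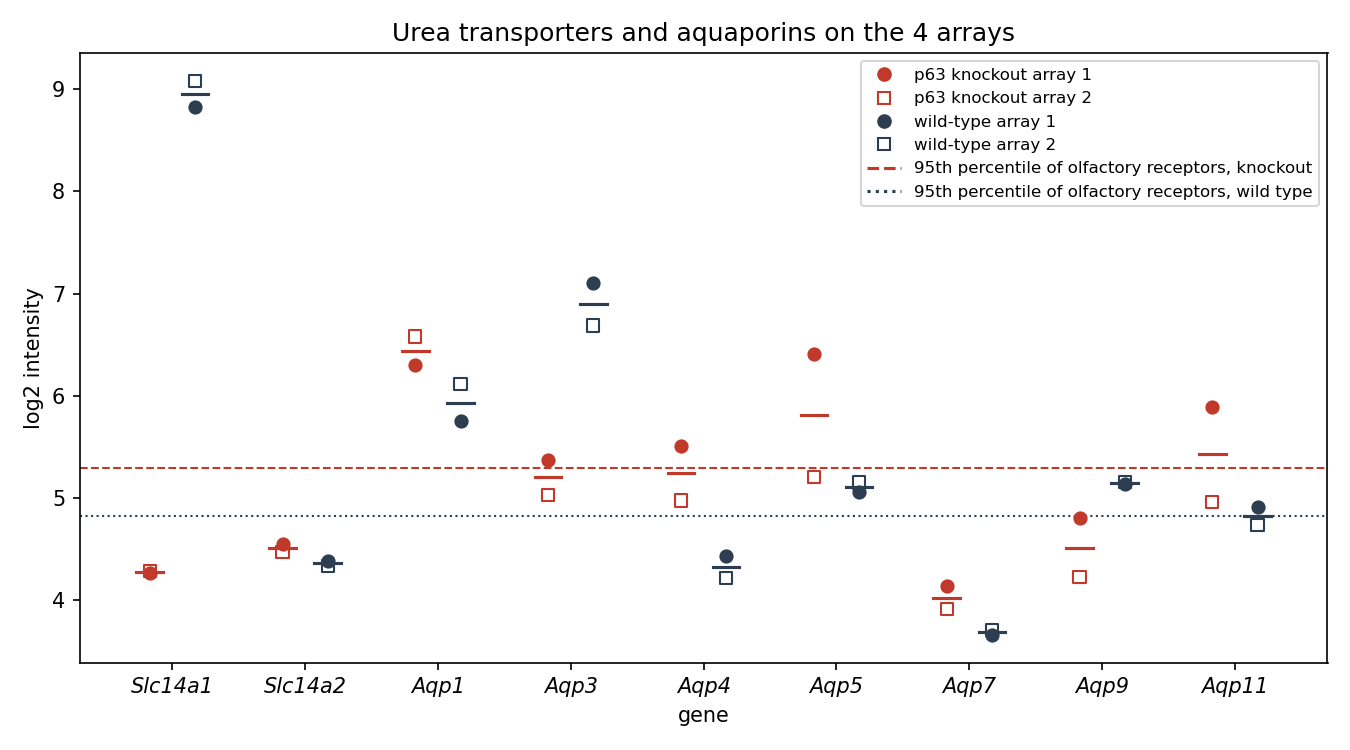
Log2 intensity of the 9 genes (vertical axis) on each array, with bars at the group means, and the 95th percentile of olfactory receptor clusters in each group (5.30 in the knockout, 4.82 in the wild type). Slc14a1 is at 4.26 and 4.29 on the knockout arrays and at 8.83 and 9.08 on the wild-type arrays, the widest separation in the plot.

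Slc14a1 encodes UT-B, the urea transporter of urothelium, red cells and the descending vasa recta of the kidney. It had 4.26 and 4.29 log2 units on the knockout arrays, against 8.83 and 9.08 on the wild-type arrays. Both knockout values lay below the 95th percentile of olfactory receptors on their array, and both wild-type values lay well above it. The means were 4.28 ± 0.017 in knockout colonies and 8.95 ± 0.18 in wild-type colonies (SD, n = 2 each), a 25.6-fold fall (log2 difference -4.68, SE 0.18, 95% interval -5.17 to -4.18, limma adjusted p = 0.015). It was the 15th lowest difference and the 13th smallest p among the 23332 clusters. A knockout level near that of olfactory receptors leaves the fold open to understatement. In picked colonies, fewer cells that make a transcript and less of it per cell cannot be told apart. The call ended in limma when any 1 array was left out, as did every other call in the table. The Slc14a1 difference then lay between -4.81 and -4.55.

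The other urea transporter gene had a difference near 0. Slc14a2 encodes the UT-A proteins of the kidney medulla, and it lies next to Slc14a1 on chromosome 18, with 0 protein-coding genes starting between them in RefSeq. Slc14a2 had 4.55 and 4.47 log2 units on the knockout arrays, against 4.39 and 4.34 on the wild-type arrays. All 4 values were below the olfactory receptor guide of their array. The log2 difference was 0.15 with a 95% interval of -0.29 to 0.59 (limma adjusted p = 0.615), and it was -0.00088 after quantile normalization and -0.0010 after cyclic loess, so its sign is not settled. The intervals of Slc14a1 and Slc14a2 did not overlap. The difference between these differences was not tested.

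**Figure D2:**
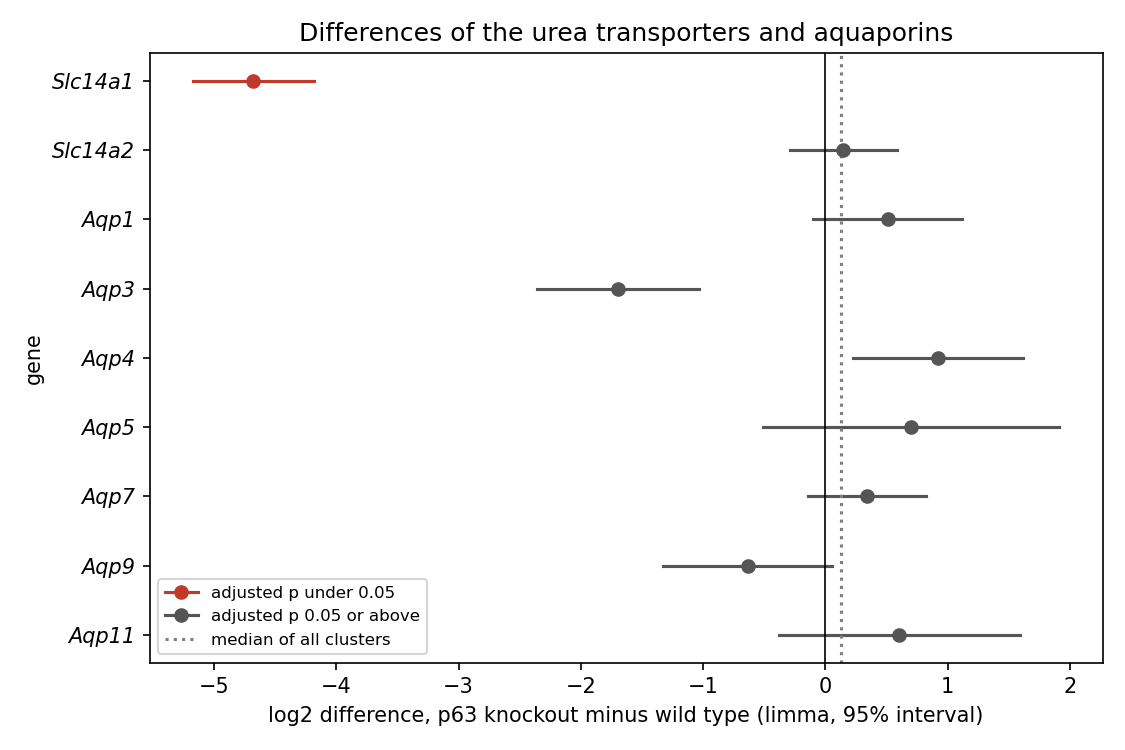
Log2 difference of each gene, knockout minus wild type (horizontal axis), with its 95% limma interval and the median of all clusters at 0.12. The intervals of Slc14a1 (-5.17 to -4.18), Aqp3 (-2.36 to -1.03) and Aqp4 (0.22 to 1.61) exclude 0, and Slc14a1 alone has an adjusted p under 0.05.

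The genes whose pattern lay nearest to Slc14a1 were found as the 5 of 14859 other genes with the smallest root mean square distance over the 4 arrays, each gene centred on its own mean. The nearest was Snx31, a sorting nexin of superficial urothelial cells, at a distance of 0.057 log2 units. Snx31 had 4.87 and 4.89 log2 units on the knockout arrays, against 9.36 and 9.54 on the wild-type arrays. Next came Sptlc3, a subunit of serine palmitoyltransferase in sphingolipid synthesis (distance 0.11), and Fmo5, a flavin monooxygenase (0.18). The other two were Trp63 itself (0.21) and the immunoglobulin-domain protein gene Vsig2 (0.21). Their log2 differences lay from -4.61 to -4.32, which the choice by likeness to Slc14a1 fixes, so they are a description.

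**Figure D3:**
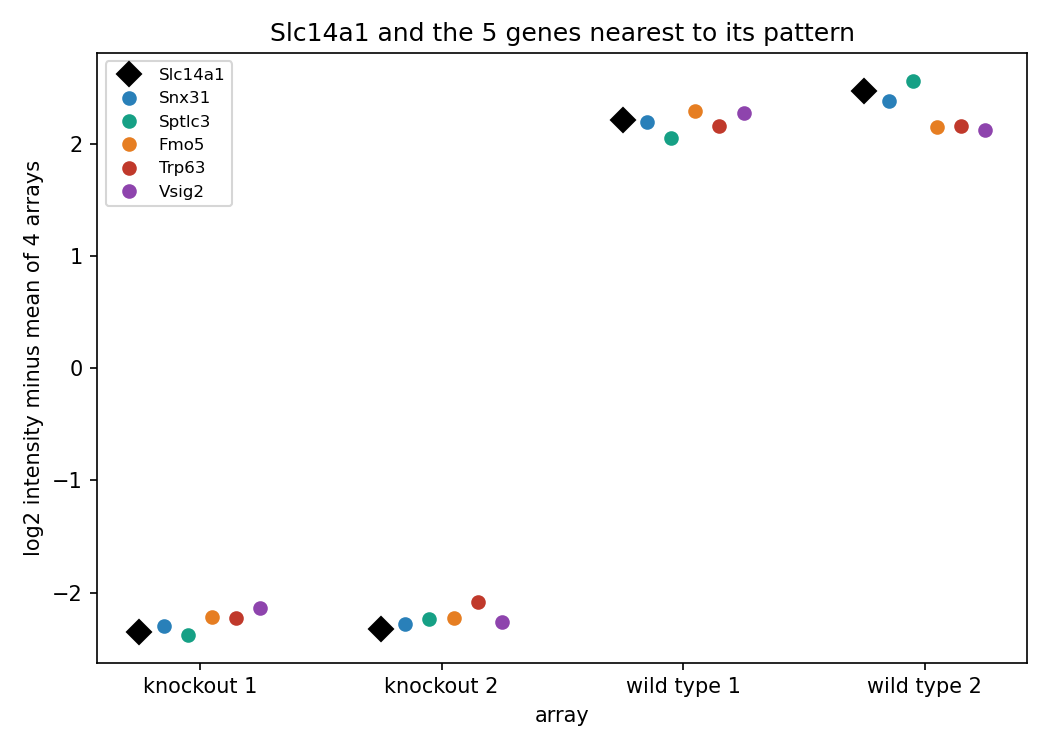
Log2 intensity minus the gene's mean over the 4 arrays (vertical axis) for Slc14a1 and its 5 nearest genes on each array. All 6 genes sit about 2 units below their mean on both knockout arrays and about 2 units above it on both wild-type arrays.

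Markers of superficial and of basal epithelial cells moved in the same comparison. Both lists, like the others here, were chosen with earlier results of these data known, so their counts are a description. Among 11 superficial urothelial markers there were 6 that fell and 0 that rose, beside 0.386% and 0.141% of all clusters, and the median log2 difference was -3.15. Those that fell were Upk1b (-7.84), Upk1a (-6.38), Upk3a (-4.07) and Upk2 (-3.39), which encode uroplakins of the luminal plaque, with Snx31 (-4.58) and the transcription factor gene Grhl3 (-3.14). Krt20, a keratin of the same cells and 1 of the 11, had the only difference above 0. It was 2.10 and did not pass (limma adjusted p = 0.096), and Krt20 is named here after its values were seen. Among 9 basal epithelial markers there were also 6 that fell and 0 that rose, beside the same shares of all clusters, and the median was -3.17. These were the keratins Krt15 (-6.26), Krt5 (-5.62) and Krt14 (-3.99), with Trim29 (-3.28), Dsg3 (-3.17) and Col17a1 (-2.44). Adjusted p in limma ran from 0.015 to 0.033 over the 12 genes. For 9 of the 12 (all but Upk2, Grhl3 and Krt14) knockout colonies averaged no more than the olfactory receptor guide, which leaves their differences open to understatement. Gata3 and Pparg, transcription factors of urothelial differentiation, had differences of -3.15 and -2.75 (limma adjusted p = 0.063 and 0.072). The abundant surface protein gene Psca was at -2.54, and the basal integrin and hyaluronan receptor genes Itga6 and Cd44 were at -1.58 and -0.91 (limma adjusted p = 0.053, 0.065 and 0.13). The share of the Slc14a1 difference that goes with these cell layers was not tested.

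Slc14a1 and Aqp1 are also genes of red cells. The 5 measured erythroid markers averaged 4.41 and 4.39 log2 units on the knockout arrays and 4.31 and 4.35 on the wild-type arrays. Of these 5, 0 passed the test, the median difference was 0.099, and 4 had group means at or below the olfactory receptor guide in both groups. The heme synthesis gene Alas2, the most abundant of them, had 4.73 and 4.98 log2 units on the knockout arrays and 4.86 and 5.04 on the wild-type arrays. Ermap and Klf1 had differences of 0.15 and 0.29. Globin genes were not among the measured ones.

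Aqp3, the aquaglyceroporin of the basal and intermediate urothelium and of the epidermis, had the second lowest difference of the members. It had 5.37 and 5.03 log2 units on the knockout arrays, against 7.11 and 6.69 on the wild-type arrays. Neither knockout value exceeded the olfactory receptor guide of its array, and both wild-type values did. The means were 5.20 ± 0.24 in knockout colonies and 6.90 ± 0.30 in wild-type colonies (SD, n = 2 each). The log2 difference was -1.69 (SE 0.24, 95% interval -2.36 to -1.03), and it did not pass in limma (adjusted p = 0.081). With the knockout at the level of the guide, that difference too is open to understatement. It passed in 1 of 12 other settings, among the 11666 clusters at or above the median level (limma adjusted p = 0.035). Of the 12, averaging a gene's clusters repeats the main fit, because Aqp3 has 1 cluster. Among clusters at or above the 25th percentile the limma adjusted p was 0.055, and after quantile normalization it was 0.104. The difference ran from -1.90 to -1.49 when 1 array was left out.

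Aqp7 lies beside Aqp3 on chromosome 4, with 0 protein-coding genes starting between them in RefSeq, and passes glycerol in adipocytes. It had 4.14 and 3.92 log2 units on the knockout arrays, against 3.66 and 3.71 on the wild-type arrays. All 4 values were below the olfactory receptor guide. The log2 difference was 0.34 (95% interval -0.14 to 0.82, limma adjusted p = 0.337), 0.067 after quantile normalization and 0.045 after cyclic loess. Of 5 measured adipocyte markers, Fabp4, a fatty acid binding protein that urothelium also makes, fell, beside 0.386% of all clusters. Fabp4 had 5.49 and 5.20 log2 units on the knockout arrays, against 8.17 and 8.37 on the wild-type arrays (limma adjusted p = 0.034). The other four did not pass (list median 0.20). Among them Adipoq, the adipocyte hormone adiponectin, was at 3.63 and 3.38 in the knockout, against 3.43 and 3.16 in the wild type, Lep had a difference of 0.45, and Plin1 one of 0.070.

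The stretch before the start of each of these neighbours is printed because the genes lie side by side and had measured differences of opposite sign, neither of which passed. The difference between them was not tested. Each is the 250 bases before the gene start in RefSeq, build GRCm38.p6, on the minus strand, read 5′ to 3′, at chr4:41098184-41098433 for Aqp3 and chr4:41047963-41048212 for Aqp7 (1 of its 2 listed starts). Capitals mark the TATA box letters TATAAA and the GC box letters GGGCGG, each searched on both strands.
Aqp3: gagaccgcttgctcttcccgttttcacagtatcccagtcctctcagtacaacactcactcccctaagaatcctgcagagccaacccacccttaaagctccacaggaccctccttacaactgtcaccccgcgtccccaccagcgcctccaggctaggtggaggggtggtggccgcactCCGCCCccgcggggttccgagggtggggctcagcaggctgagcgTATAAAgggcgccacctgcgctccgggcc
Aqp7: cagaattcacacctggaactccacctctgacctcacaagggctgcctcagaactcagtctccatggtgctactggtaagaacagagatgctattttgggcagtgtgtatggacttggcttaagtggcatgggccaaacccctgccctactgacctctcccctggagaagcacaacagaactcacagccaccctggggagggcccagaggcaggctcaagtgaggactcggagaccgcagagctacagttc
The Aqp3 window holds 1 TATA box beginning 29 bases before the start and 1 GC box beginning 73 bases before it, and 14 CG dinucleotides. The Aqp7 window holds neither, and 2 CG dinucleotides. Of 32851 RefSeq windows of the same length, 12.4% hold the TATA letters and 32.7% the GC box letters, and the median number of CG dinucleotides was 6. Windows were listed for 6 of the members (Aqp1, Aqp3, Aqp5, Aqp7, Aqp9 and Aqp11), 8 in all, of which the 2 of Aqp7 overlap. None was listed for Slc14a1, the called member, or for Slc14a2 and Aqp4. The p53 family half-site consensus was found in 0 of the 8, beside 7.13% of all windows. The tonicity-responsive enhancer consensus, named for the osmotic factor Nfat5, was found in 1 of the 8, the other Aqp7 window, beside 4.31% of all. These are matches of letters in short windows and describe the sequence alone.

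Aqp9, an aquaglyceroporin of liver that also carries urea, was the third member lower in the knockout. It had 4.80 and 4.23 log2 units on the knockout arrays, against 5.14 and 5.16 on the wild-type arrays. The wild-type values were just above the olfactory receptor guide and the knockout values below it. The log2 difference was -0.64 (95% interval -1.33 to 0.057, limma adjusted p = 0.249), and it ran from -0.92 without knockout array 1 to -0.35 without knockout array 2, with -0.73 after quantile normalization. Aqp9 is also known from neutrophils and other leukocytes. The 11 leukocyte markers had 0 calls and a median difference of 0.39, and 9 of them were at or below the guide in both groups. Their mean was 4.81 and 4.73 log2 units in the knockout, against 4.61 and 4.43 in the wild type. The most abundant was Cd68, of macrophages, with 8.58 and 8.12 log2 units in the knockout, against 7.68 and 7.26 in the wild type. Cd14, of monocytes, had 7.63 and 6.36 in the knockout, against 6.22 and 6.20 in the wild type. Cd79a, of B cells, and S100a8, of neutrophils, had differences of -1.63 and 1.33 (limma adjusted p = 0.142 and 0.129).

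Aqp1, the water channel of red cells, endothelium and kidney proximal tubule, was above the olfactory receptor guide on all 4 arrays. It had 6.30 and 6.58 log2 units on the knockout arrays, against 5.75 and 6.11 on the wild-type arrays. The log2 difference was 0.51 (95% interval -0.098 to 1.12, limma adjusted p = 0.277), and it stayed between 0.33 and 0.69 under the other settings. Of 10 endothelial markers, 0 passed, and 5 were at or below the guide in both groups. At an unadjusted p under 0.05, 4 were lower and 0 higher, beside 7.7% and 14.6% of all clusters. The arrays of the groups lay apart for 6 lower and 1 higher, beside 20.9% and 36.2% of all clusters, and overlapped for 3. The median difference of the 10 was -0.71. Their mean was 4.15 and 4.01 log2 units in the knockout, against 5.21 and 4.62 in the wild type. Emcn and Pecam1, endothelial surface proteins, had differences of -2.49 and -1.84 (limma adjusted p = 0.106 and 0.155), with Pecam1 at 6.94 on wild-type array 1 and 5.67 on wild-type array 2, and the secreted factor gene Egfl7 one of -0.17.

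Markers of other cells known to make Aqp1, or that the culture could hold, were measured too. The 12 fibroblast and feeder cell markers averaged 7.54 and 7.86 log2 units in the knockout, against 8.18 and 7.71 in the wild type, with 0 calls and a median difference of -0.048. Their most abundant members, Sparc and S100a4, had differences of 0.41 and -0.89, and the proteoglycan genes Lum and Dcn -2.33 and -1.45 (limma adjusted p = 0.179 and 0.150). The 7 smooth muscle markers averaged 5.81 and 5.66 in the knockout, against 5.59 and 4.90 in the wild type, with 0 calls and a median of 0.46. Acta2 was at 1.24, Cnn1 at 1.19 and Smtn at -0.044 as log2 differences. The 5 mesothelial markers, of which Upk3b is also on the superficial urothelial list and Krt19 is a general epithelial keratin, averaged 6.99 and 6.58 in the knockout, against 6.76 and 6.72 in the wild type, with 0 calls and a median of 0.21. Msln, mesothelin, had a difference of 1.84 (limma adjusted p = 0.051) and Krt19 one of -1.38. The part of endothelium or of any of these cells in the Aqp1 value was not tested.

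Aqp4, Aqp5 and Aqp11 had their highest values on knockout array 1, as did Slc14a2 and Aqp7. Aqp5, the apical water channel of salivary glands and lung alveoli, had 6.41 and 5.21 log2 units on the knockout arrays, against 5.06 and 5.15 on the wild-type arrays. Its gap of 1.20 between the knockout arrays was wider than that of 91.7% of clusters. The value of knockout array 2 was below the olfactory receptor guide of its array, and the others were above theirs. The log2 difference of 0.70 (95% interval -0.51 to 1.91, limma adjusted p = 0.409) became 0.10 without knockout array 1 and 1.30 without knockout array 2, and it was 0.69 after quantile normalization.

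Aqp11, an aquaporin of intracellular membranes whose loss in mice gives cystic kidneys, had 5.89 and 4.97 log2 units on the knockout arrays, against 4.91 and 4.74 on the wild-type arrays. Its gap of 0.93 between the knockout arrays was wider than or as wide as that of 87.0% of clusters. The values of knockout array 2 and wild-type array 2 were below the olfactory receptor guide of their array. The log2 difference of 0.61 (95% interval -0.38 to 1.59, limma adjusted p = 0.389) became 0.14 without knockout array 1 and 1.07 without knockout array 2, and it was 0.56 after quantile normalization. The differences of Aqp5 and Aqp11 thus depended on which knockout array was kept.

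Aqp4, the main water channel of astrocytes and a basolateral channel of kidney collecting ducts, had 5.51 and 4.98 log2 units on the knockout arrays, against 4.43 and 4.22 on the wild-type arrays. Of these, 1 value, that of knockout array 1, was above the olfactory receptor guide of its array. The log2 difference was 0.92 (95% interval 0.22 to 1.61), the highest of the members, and did not pass (limma adjusted p = 0.166). It was 0.84 after quantile normalization and ran from 0.65 to 1.19 when 1 array was left out. Of 7 neural and glial markers (list median -0.092), Uchl1 of neurons fell and 0 rose, beside 0.386% and 0.141% of all clusters. Uchl1 had a log2 difference of -2.85 (limma adjusted p = 0.032). The 7 markers averaged 4.58 and 4.67 log2 units in the knockout, against 5.16 and 5.09 in the wild type. Snap25 and Stmn2, of neurons, had differences of -2.16 and 1.62, and Sox10, of Schwann cells, one of -0.035. Every Stmn2 value was below the olfactory receptor guide of its array.

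**Figure D4:**
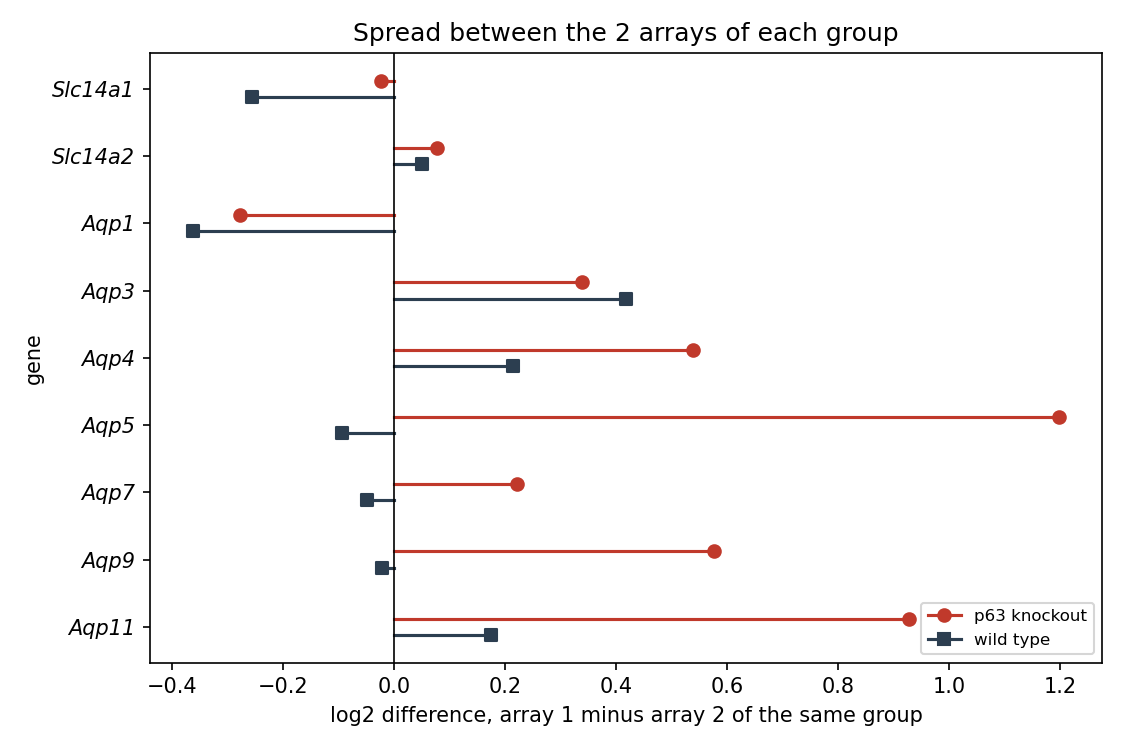
Array 1 minus array 2 of the same group, in log2 units (horizontal axis), for each gene and each genotype. Aqp5 (1.20) and Aqp11 (0.93) have the widest gaps between the knockout arrays, and Slc14a1 (-0.024) the narrowest.

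Between the knockout arrays, 7 of the 9 members were higher on array 1, beside 49.5% of all clusters. The exceptions were Slc14a1 and Aqp1. Between the wild-type arrays 4 were higher on array 1. The median absolute gap of the members was 0.34 between the knockout arrays and 0.17 between the wild-type arrays, against 0.31 and 0.18 for all clusters. The wider spread in the knockout was thus a feature of the table as a whole, in which 65.1% of clusters had the wider gap between the knockout arrays.

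All 5 aquaporin genes measured outside the member list are given, of which Aqp2, Mip and Aqp12 were named after their values were seen. Aqp2, the vasopressin-controlled channel of the kidney collecting duct, had 5.23 and 4.96 log2 units in the knockout, against 4.94 and 5.09 in the wild type. Aqp6 had 4.20 and 4.13 in the knockout, against 3.66 and 3.54 in the wild type, and Aqp8 4.52 and 4.50 in the knockout, against 4.21 and 4.20 in the wild type. The lens channel gene Mip and the pancreatic Aqp12 had differences of 0.17 and 0.27. None of the 5 passed in limma, and 1 had an unadjusted p under 0.05, beside 22.3% of all clusters. The median was 0.27, against 0.47 for olfactory receptor clusters, and 4 had means at or below the olfactory receptor guide in both groups.

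Genes that make urea or handle the other cargo of these channels showed 0 calls in limma. At an unadjusted p under 0.05, the count used for this and the next lists, 22.3% of all clusters differed, 14.6% higher and 7.7% lower. Of 9 measured genes of the urea cycle and of arginine and polyamine metabolism, 0 had an unadjusted p under 0.05 and the median difference was 0.12. The largest differences were those of Arg1, an arginase that splits off urea (0.73, with 5.49 and 4.67 log2 units in the knockout, against 4.33 and 4.38 in the wild type), and Slc25a15, the mitochondrial ornithine carrier (-0.43). Of 10 glycerol-handling genes, 2 had an unadjusted p under 0.05, both lower, and the median was -0.15. Dgat2, which makes triglyceride, had 5.22 and 4.61 log2 units in the knockout, against 5.95 and 5.82 in the wild type (limma adjusted p = 0.166). Gpam, which starts glycerolipid synthesis, had 5.61 and 5.75 in the knockout, against 6.43 and 6.44 in the wild type (limma adjusted p = 0.124).

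The osmotic and ion transport lists had 0 calls too, with members on both sides. Of 10 genes of the response to hypertonicity, 3 were higher and 3 lower at an unadjusted p under 0.05, beside 14.6% and 7.7% of all clusters, and the median was 0.10. Slc5a3, the sodium and myo-inositol cotransporter, had 8.29 and 8.03 log2 units in the knockout, against 7.28 and 7.25 in the wild type (limma adjusted p = 0.116). Stk39, a kinase of cell volume control, had 8.16 and 7.97 in the knockout, against 8.90 and 8.95 in the wild type (limma adjusted p = 0.115). Of 13 channels and pumps of tight epithelia, 3 were higher and 2 lower at an unadjusted p under 0.05, and the median was -0.14. Fxyd3, a regulator of the sodium pump, had 6.77 and 5.24 log2 units in the knockout, against 8.57 and 8.75 in the wild type (limma adjusted p = 0.119). Cftr, the chloride channel of cystic fibrosis, had 3.96 and 5.15 in the knockout, against 2.50 and 2.51 in the wild type (limma adjusted p = 0.123). Every Cftr value was below the olfactory receptor guide of its array. Scnn1a, the epithelial sodium channel's alpha subunit, is on the same list and was named after its values were seen. It had 6.53 and 5.95 in the knockout, against 4.73 and 4.42 in the wild type (limma adjusted p = 0.096). Of 10 genes of vasopressin and cyclic AMP control of channel traffic, 1 had an unadjusted p under 0.05 and the median was -0.044. It was Prkar2b, a regulatory subunit of protein kinase A, with 7.42 and 8.24 log2 units in the knockout, against 6.82 and 6.76 in the wild type (limma adjusted p = 0.188). The anchoring protein gene Akap7 had a difference of 0.42.

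**Figure D5:**
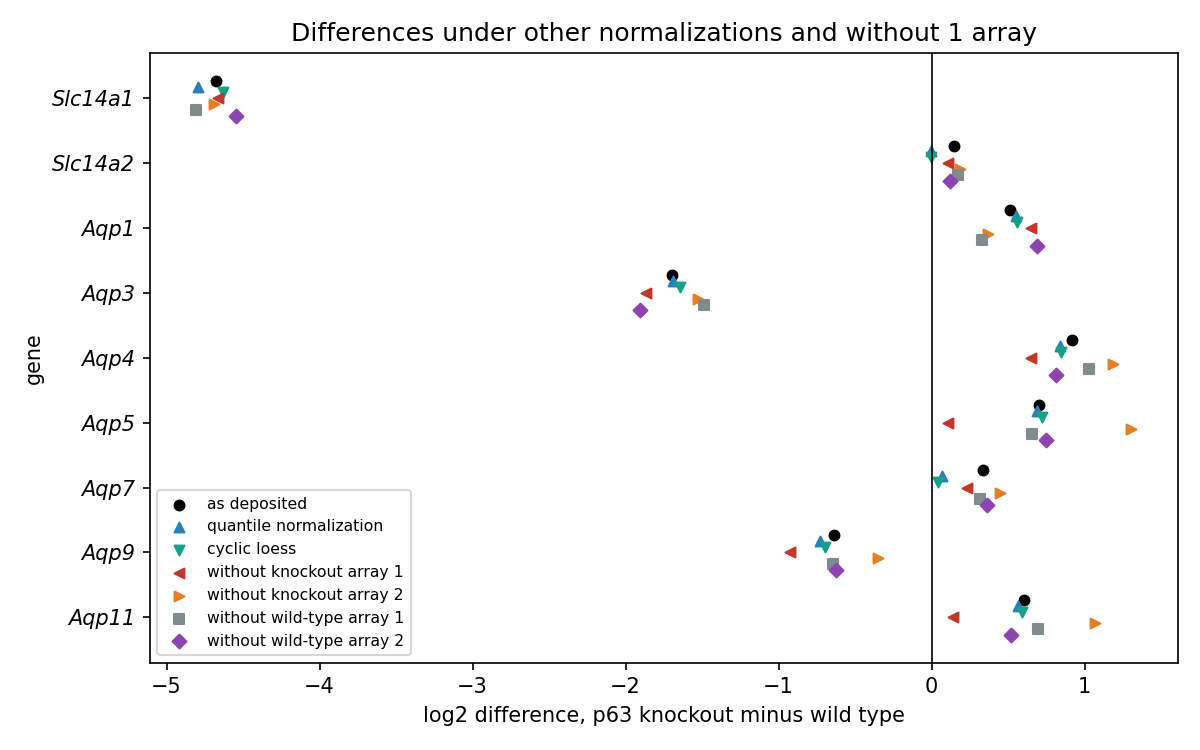
Log2 difference of each gene, knockout minus wild type (horizontal axis), as deposited, after 2 normalizations and without each array in turn. Slc14a1 stays between -4.81 and -4.55 and Aqp3 between -1.90 and -1.49, while Aqp5 moves between 0.10 and 1.30 with the knockout array left out.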

How the data were processed

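Gene-level expression was measured in 4 bladder epithelial samples, 2 p63 knockout and 2 wild type, on Affymetrix Mouse Exon 1.0 ST arrays. The deposited table holds log2 intensities of 23332 transcript clusters. That these are log2 units was inferred from their range. The authors made them with Affymetrix Expression Console and Partek and build mm9, per the submitters' processing notes. The summarisation, normalization and tool versions were not given in the sources used here. The number of arrays limits the precision.

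Genes were named from the platform annotation. It gave 14996 clusters 1 symbol, 1019 several and 7317 none, and 14941 matched RefSeq (GRCm38) by Entrez identifier, which changed 0 symbols. Knockout was set against wild type in R 4.3.3 with limma 3.58.1 (lmFit, then eBayes; two-sided, every cluster, no covariate), with Benjamini-Hochberg adjustment over the whole table and calls at adjusted p under 0.05. The fit was tested on simulated data, with spread drawn from the fitted prior and 200 clusters changed in each of 10 runs. It called 0% of changes of 1 log2 unit, 18.75% of 2, 66.5% of 3 and 91% of 5. In the deposited data the smallest called difference was 1.89 log2 units. A gene without a call is thus not shown to be unchanged.

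Named were all members, Trp63, of each of 16 other lists up to 6 calls and the 2 largest other differences, the 2 most abundant markers of each cell type, and the 5 genes nearest to Slc14a1. Aqp2, Mip, Aqp12, Krt20 and Scnn1a were named outside this rule, after their values were seen. Members and lists were chosen with earlier results of these data known. Alternatives were quantile normalization, cyclic loess, median centring, 2 filters on dim clusters, an intensity trend, a replicate block, leaving out each array, and averaging a gene's clusters. The last repeats the main fit for the members, each of which has 1 cluster.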

Additional observations from a re-analysis of the deposited data

How the results depend on the processing

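Against 123 calls over all clusters, 1 among the 9 members (Slc14a1) and 14 among 138 other list genes, limma gave 303 calls over all clusters with an intensity trend. It gave 362 among clusters at or above the 25th percentile of mean level and 524 at or above the median. The last setting tested 5 members and called 2, adding Aqp3, and called 23 list genes. The filter is on the mean over the 4 arrays, which Slc14a1 passed through its wild-type values, its knockout mean of 4.28 being below the array medians. Leaving out any 1 array gave 0 calls for all clusters, members and list genes alike, with 2124 to 6570 clusters, 2 to 5 members and 34 to 55 list genes at an unadjusted p under 0.05. These fits assume that the lone array of a group varies like the other group. The replicate block, which uses the shared numbers of the labels, also gave 0 calls for each (4525 clusters, 3 members and 52 list genes at an unadjusted p under 0.05, and adjusted p = 0.118 for Slc14a1). Deviations of arrays with the same number correlated at 0.019 across clusters, so the numbers are not known to pair the arrays. Slc14a2 changed sign to -0.00088 under quantile normalization and -0.0010 under cyclic loess, the cause was not tested, and the other 8 members kept their sign in every setting in which they were tested. Aqp7 was not tested with either filter. Slc14a2, Aqp4 and Aqp9 were not tested above the median. Signal near that of olfactory receptors limits what can be said of the dim aquaporins.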
